A study of Mus musculus with 8 samples.

Results

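The genes that encode the protein components of the mitochondrial ribosome were followed in the heart of the db/db mouse, a strain with a defective leptin receptor that becomes obese and diabetic. Members were all rows whose Ensembl identifier maps to a protein-coding mouse gene with a symbol of Mrpl or Mrps followed by a number, and 78 of the 55487 genes in the count table met this rule. The data were 8 libraries of heart RNA. Treatment in the labels was vehicle for 4 of them and DIZE for the other 4, and DIZE is read here as the antiprotozoal drug diminazene aceturate. All 8 share the db/db genotype, with no non-diabetic group among them, and the labels used here give no age, sex, dose or duration of treatment. Nor do they state that the libraries stem from different animals, and the p-values therefore reflect only how much these libraries vary. Poly(A)-selected RNA was sequenced as read pairs from stranded libraries. Of the 78 members, 77 had enough reads to be tested, among 13648 tested genes in all.

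Mitochondrial ribosomes translate the few messenger RNAs that mitochondrial DNA encodes, all of them for subunits of the respiratory chain and ATP synthase. Their rRNA is transcribed inside the organelle, whereas every ribosomal protein is encoded in the nucleus, made in the cytosol and imported. Part of these proteins descend from bacterial ribosomal proteins, and the rest were added during the evolution of mitochondria. Heart muscle depends heavily on respiration, and inherited defects of several of these proteins, among them those encoded by Mrpl3, Mrpl44, Mrps14 and Mrps22, cause cardiomyopathy in people.

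Of the 78 members, 51 encode proteins of the large subunit and 26 proteins of the small subunit. Mrps18a and Mrps30 carry small-subunit symbols for historical reasons, but their products sit in the large subunit and they are counted there. Mrps36 was kept because its symbol fits the rule, although its product is now known as a component of the 2-oxoglutarate dehydrogenase complex, and it is counted in neither subunit. Members were spread over 17 chromosomes, with 11 on chromosome 11, 8 on chromosome 17 and 7 on chromosome 6.

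Promoter sequences are shown for 4 members to make visible what start regions of this family look like. Mrpl33 and Mrpl45 had the smallest unadjusted p of the members that lay lower and higher in DIZE, Mrpl12 was among the most abundant, and Mrps12 starts close to a gene on the other strand that is described below. These 4 were picked with their values known. Each sequence is from RefSeq on GRCm38.p6, runs 5′ to 3′ from 250 bases before to 50 bases after the annotated start, and has motif matches in capitals. The Mrpl33 window is chr5:31613701-31614000 (plus strand), the Mrpl45 window chr11:97315466-97315765 (plus strand), the Mrpl12 window chr11:120484387-120484686 (plus strand) and the Mrps12 window chr7:28741772-28742071 (minus strand).
Mrpl33: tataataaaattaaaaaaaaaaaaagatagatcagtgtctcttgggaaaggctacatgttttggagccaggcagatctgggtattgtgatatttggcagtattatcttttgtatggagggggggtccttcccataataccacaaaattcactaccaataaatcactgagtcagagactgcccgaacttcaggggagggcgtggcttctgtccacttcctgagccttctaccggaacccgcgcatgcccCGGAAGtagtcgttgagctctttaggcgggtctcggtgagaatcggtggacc
Mrpl45: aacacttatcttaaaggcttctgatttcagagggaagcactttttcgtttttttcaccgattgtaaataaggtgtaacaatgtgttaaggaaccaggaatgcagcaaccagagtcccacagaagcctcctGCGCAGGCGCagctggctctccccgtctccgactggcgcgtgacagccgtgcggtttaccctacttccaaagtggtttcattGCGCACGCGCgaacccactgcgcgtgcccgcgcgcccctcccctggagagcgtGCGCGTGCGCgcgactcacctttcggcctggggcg
Mrpl12: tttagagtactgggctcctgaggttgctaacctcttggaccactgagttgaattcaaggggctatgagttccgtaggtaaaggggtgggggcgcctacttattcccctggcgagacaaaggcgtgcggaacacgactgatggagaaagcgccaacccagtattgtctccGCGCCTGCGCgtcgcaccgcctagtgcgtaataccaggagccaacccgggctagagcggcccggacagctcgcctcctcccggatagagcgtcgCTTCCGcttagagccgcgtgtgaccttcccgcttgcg
Mrps12: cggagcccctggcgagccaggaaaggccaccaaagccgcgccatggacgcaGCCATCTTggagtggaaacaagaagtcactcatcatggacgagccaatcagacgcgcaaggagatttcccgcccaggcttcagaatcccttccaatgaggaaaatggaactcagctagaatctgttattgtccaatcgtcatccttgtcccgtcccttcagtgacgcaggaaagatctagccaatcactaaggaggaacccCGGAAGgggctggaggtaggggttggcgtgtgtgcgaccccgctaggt
Capitals mark, on either strand, the letters GCGCA and GCGC with any 1 base between them (a form of the site of NRF1, a factor of nuclear genes for mitochondrial proteins), CTTCCG (a core shared by factors of the ETS family) and AAGATGGC (a form of the site of YY1). Mrpl45 holds 3 matches to the NRF1-type letters, Mrpl12 holds 1 such match and 1 ETS-type match, Mrps12 holds 1 ETS-type and 1 YY1-type match, and Mrpl33 holds 1 ETS-type match.

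Across the family, 69 of 78 members had a promoter in the table. The ETS-type letters were present in 39 of the 69 (56.5%), against 18.8% of all 27025 genes with a promoter of the same length and 33.8% of those tested here. The NRF1-type letters were present in 13 (18.8%), against 5.19% of all and 11.2% of tested genes, and the YY1-type letters in 12 (17.4%), against 3.19% and 5.11%. The letters TATAAA of the TATA box were present in 5 members (7.25%), against 15.7% of all and 9.19% of tested genes. At least 1 of the first 3 motifs was found in 51 of 69 members (73.9%), against 23.9% of all and 42.8% of tested genes. The motifs do not overlap in their letters, 10 letter strings were searched in all, and these 4 were chosen for the text after the shares were seen. Of the other 6, 5 were longer, shorter or shifted forms of the same motifs, and the E-box letters CACGTG were present in 7.25% of members against 8.09% of all and 11.6% of tested genes. Within the window, the median position was -20 bases for 61 ETS-type matches and -38.5 bases for 16 NRF1-type matches. The 12 YY1-type matches had a median of 19 bases past the start. The short window keeps every match near the start, and positions in other genes were not compared. Matches were counted in each of 75 promoters of the 69 members, so 1 site can count more than once. A match is a description of letters, and binding was not measured. Members with and without the motifs had near values in the comparison below, with a median log2 fold change of -0.025 in 38 tested members with the ETS-type letters and -0.044 in 30 without.

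Many members also share their start region with another gene. For 33 of 78 members (42.3%), a protein-coding gene on the other strand starts within 1000 bases, against 10.8% of all 21897 protein-coding genes and 15.6% of those tested. Mrps11 and Mrpl46 form such a pair within the family, and their 5′ ends overlap by 412 bases on chromosome 7. Mrps12 lies 172 bases from Sars2, the gene of mitochondrial seryl-tRNA synthetase, and Mrpl43 overlaps the 5′ end of Twnk, the gene of the mitochondrial DNA helicase. Mrpl36 overlaps the start of Ndufs6, which encodes a subunit of respiratory complex I. The distance was chosen with the data at hand.

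The 8 libraries differed in cell type markers both within and between the groups, and values that touch these genes are given first. Total counts ran from 7447664 to 10161623, and reads of members made up 0.437% to 0.543% of each library. All 10 cardiomyocyte markers were tested, and their summed level was 32504 to 51952 CPM (read counts rescaled to a common library size) with vehicle and 47039 to 53695 CPM in DIZE. CPM use as library size the sum over tested genes, corrected by TMM, a scaling factor that evens out differences in composition. Vehicle 1 had the lowest cardiomyocyte sum and the highest sums of atrial markers (810 CPM, against 13.6 to 314 CPM elsewhere, 4 of 5 tested), fibroblast markers (2779 against 1379 to 1939 CPM, 10 of 10 tested) and macrophage markers (1188 against 617 to 727 CPM, 9 of 9 tested). The hepatocyte marker Alb was at 1348 CPM in vehicle 2 and at most 6.38 CPM in the other libraries, and it alone of 5 hepatocyte markers was tested. Erythroid markers (5 of 6 tested) summed to 101 to 210 CPM with vehicle and 8.95 to 78.4 CPM in DIZE, without overlap of the groups, and Slc4a1 had 9 reads in all. Lymphocyte and adipocyte markers were nearly absent, with only Cd4 tested, no read of Ucp1 and at most 27 reads of any other adipocyte marker in a library. Endothelial markers (8 of 8 tested) summed to 1559 to 2300 CPM with vehicle and 1408 to 2051 CPM in DIZE, and those of smooth muscle and pericytes (6 of 7 tested) to 1558 to 1907 and 1478 to 1598 CPM. In bulk tissue, fewer cells of a type and less RNA per cell cannot be told apart. The part of these markers in the results below was not tested, other than by leaving out vehicle 1 or vehicle 2.

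Levels of the members spanned a wide range in these hearts. Compared per kilobase of the longest coding transcript, which allows genes to be set side by side, the median over 77 members was 35.1 CPM per kb, against 6.99 CPM per kb over all tested genes. Mrpl42, a large-subunit protein with no bacterial counterpart, was far above the rest at 411 CPM per kb. It was followed by Mrpl12, part of the stalk that recruits translation factors, at 140 CPM per kb, Mrps21 at 130 CPM per kb, Mrpl28 at 115 CPM per kb, Mrps23 at 112 CPM per kb and Mrps18a at 101 CPM per kb. Of the 10 highest members, 8 belong to the large subunit. The lowest were Mrps25 at 5.82 CPM per kb, Mrpl17 at 6.66 CPM per kb and Mrpl57 at 7.31 CPM per kb, so that the family spanned 70.6-fold. These ranks depend on which transcript is assumed to be used: with the union of all annotated exons as the length, the order over members had a Spearman's rho of 0.83 with this one, a description across genes.

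One member gave no signal. Mrpl53, a large-subunit gene on chromosome 6 from 83109040 to 83109939, had 0 reads in all 8 libraries. Its exons overlap the annotated gene Gm42688 on the same strand, which had 3 to 5 reads per library, and Ccdc142os on the other. Whether reads that fall in 2 genes were discarded in counting is not given in the sources used here, so the absence of reads does not show that Mrpl53 is silent. Among tested members, 7 overlap an annotated gene on the same strand, 24 only on the other strand and 46 none. The table also lists 5 processed pseudogenes of the family, of Mrpl23, Mrpl48 and, with 3 copies, Mrps36, which held at most 88 reads each over the 8 libraries, and reads that fit a gene and its copy equally well are uncertain.

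Comparing DIZE with vehicle asks whether treatment changed expression in the diabetic heart. No member passed. In the edgeR quasi-likelihood fit, with p adjusted by Benjamini-Hochberg over all tested genes, 0 of 77 members had an adjusted p under 0.05, where 5 genes of 13648 (0.0366%) did. At an unadjusted p under 0.05 there were also 0 members, where 19.4% of all tested genes, and 21.2% of the 9244 with a mean level in the range of the members (8.15 to 274 CPM), lay under it. With DESeq2, 0 members and 4.44% of genes passed after adjustment, and 1 member, Mrpl45, had an unadjusted p under 0.05, against 19.5% of genes. Only Mrpl33, lower in DIZE, and Mrpl40, higher, had groups that did not overlap. These are 2 of 77 members, where the groups did not overlap for 12.4% of all genes, with 7.17% higher and 5.26% lower in DIZE. The distributions of p and of size are set against those of all genes in the plot of cumulative shares.

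**Figure D1:**
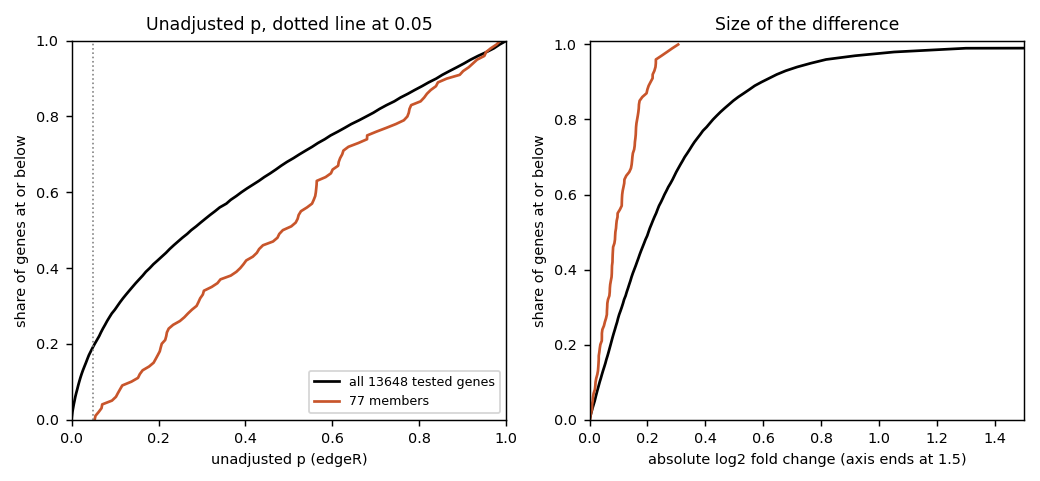
Share of genes at or below a given unadjusted edgeR p (left) and absolute log2 fold change (right) for the 77 members (orange) and all 13648 tested genes (black). The members' curve starts just past the dotted line at 0.05 and, on the right, ends at 0.31, where the curve of all genes goes on past the axis end at 1.5.

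The differences were small as well as uncalled, and the precision was sufficient to limit their size for most members. Log2 fold changes ran from -0.28 (Mrpl33) to 0.31 (Mrps2) with a median of -0.021, against -0.013 over all genes, and 45 members lay lower in DIZE and 32 higher, against 51.8% of all genes lower and 48.2% higher. The median absolute log2 fold change was 0.09 for members and 0.20 for all genes, and no member exceeded 0.5, where 14.7% of all genes did. For 75 of 77 members the 95% interval of the fold change lay within 1.5-fold in either direction, against 46.7% of all genes. This bound was chosen after the values were seen. The median standard error was 0.12 log2 units for members and 0.17 for all genes. Within groups the members were also less spread, with a median SD of log2 CPM of 0.16 in vehicle and 0.13 in DIZE, against 0.25 and 0.20 over all genes. These contrasts were smaller against the 9244 genes in the members' range of mean levels. There the median absolute log2 fold change was 0.18, 10.9% exceeded 0.5 and 60.7% had intervals within 1.5-fold. Their median standard error was 0.15, and their median SD was 0.21 in vehicle and 0.17 in DIZE.

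The exceptions to the 1.5-fold bound were Mrps2 and Mrps34. Mrps34, a small-subunit protein gene named here after its values were seen, was at 6.67, 8.46, 8.72 and 7.16 CPM in vehicle 1 to 4 and at 8.91, 2.89, 12.4 and 9.95 CPM in DIZE 1 to 4. The DIZE libraries held both the lowest and the highest value, and the interval of the log2 fold change ran from -0.57 to 0.88. Mrps34 overlaps Nme3 on the same strand, and Nme3 had 0 reads in every library.

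**Figure D2:**
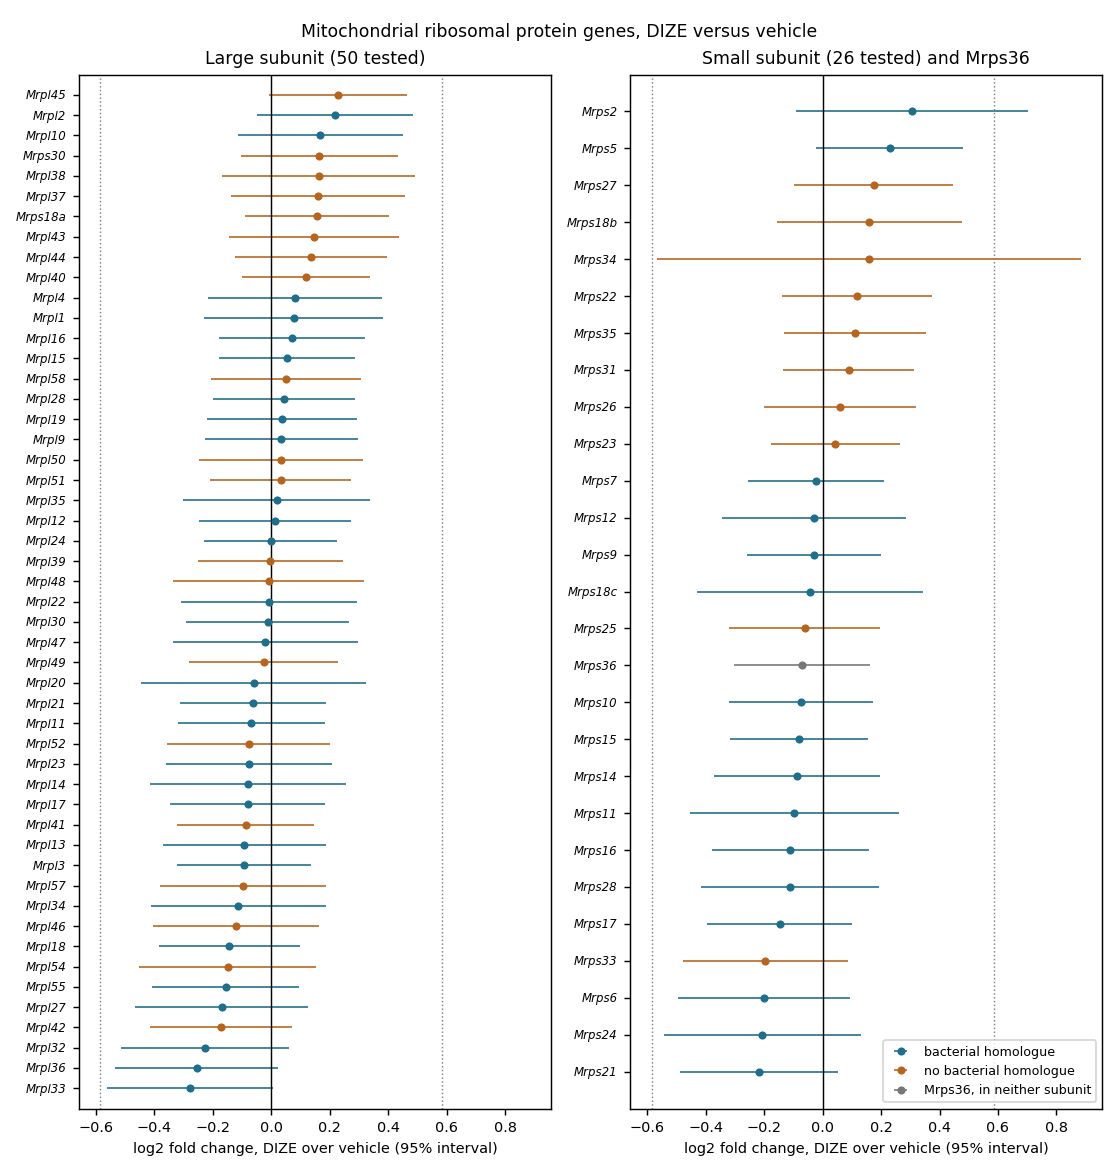
Log2 fold change of DIZE over vehicle with its 95% interval for each of the 77 tested members, by subunit, in blue for homologues of bacterial proteins, brown for proteins with no bacterial homologue and grey for Mrps36. Dotted lines mark 1.5-fold in either direction, and intervals of 75 members lie between them.

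The large-subunit member with the smallest p was Mrpl33 (ENSMUSG00000106918, chromosome 5 from 31596935 to 31664384 on GRCm38), a small protein of the subunit core, whose promoter is the first shown above. It was at 16.7, 15.4, 16.9 and 18.4 CPM in vehicle 1 to 4 and at 14.8, 11.97, 15.1 and 13.7 CPM in DIZE 1 to 4. Every DIZE library lay below every vehicle library, by a narrow margin. Mean levels were 16.9 ± 1.25 CPM (SD, n = 4) and 13.9 ± 1.39 CPM, a log2 fold change of -0.28 ± 0.13 SE that did not pass (edgeR adjusted p = 0.266). Once a fitted trend on GC content and transcript length was taken out of every library, the log2 fold change was 0.0019. Over tested genes, the deviation from the gene's mean had a Spearman's rho with GC content of -0.47 to 0.083 in vehicle libraries (mean -0.15). In DIZE libraries it was -0.083 to 0.40 (mean 0.25). The trend thus ran partly along the treatment, and how far its removal also takes out a difference by treatment was not tested.

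Mrpl45 (ENSMUSG00000018882, chromosome 11 from 97315716 to 97329920), whose product lies at the exit of the peptide tunnel and holds the ribosome at the inner membrane, was at 81.1, 94.5, 85.3 and 82.0 CPM with vehicle and 90.5, 103.9, 109.8 and 97.4 CPM in DIZE. DIZE 1 was below vehicle 2, and the other 3 DIZE libraries were above all vehicle libraries. The means were 85.7 ± 6.14 and 100.4 ± 8.36 CPM (log2 0.23 ± 0.11 SE, edgeR adjusted p = 0.272, DESeq2 adjusted p = 0.214).

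Mrpl36, a small zinc-binding protein of the large subunit (ENSMUSG00000021607, chromosome 13 from 73328513 to 73332178), was at 34.3, 34.5, 31.8 and 30.9 CPM with vehicle and 24.2, 25.4, 33.4 and 26.9 CPM in DIZE. DIZE 3 lay among the vehicle libraries and the other 3 below all of them (log2 -0.26 ± 0.13 SE, and -0.11 with the GC and length trend removed). Mrpl2, a protein near the catalytic centre, was at 64.4, 83.5, 66.0 and 72.2 CPM with vehicle and 79.1, 75.5, 94.2 and 83.8 CPM in DIZE. Its groups overlapped through vehicle 2 (log2 0.22 ± 0.12 SE). Mrpl32, which is matured by the inner-membrane protease that contains the Spg7 product, was at 40.7, 32.2, 28.3 and 29.6 CPM with vehicle and 27.5 to 28.5 CPM in DIZE. The DIZE libraries were close together, and vehicle 1 stood above the rest. The log2 fold change of Mrpl32 was -0.23 ± 0.13 SE and -0.10 without vehicle 1. Mrpl42, the most abundant member per length, was at 323.0, 313.2, 264 and 259 CPM with vehicle and 247 to 275 CPM in DIZE, with vehicle 3 and vehicle 4 inside the DIZE range (log2 -0.17 ± 0.11 SE, and 0.11 with the GC and length trend removed).

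In the small subunit, Mrps5 (ENSMUSG00000027374, chromosome 2 from 127587222 to 127606829), whose product lines the path of the messenger RNA into the ribosome, was at 43.8, 53.6, 45.3 and 47.0 CPM with vehicle and 56.6, 61.1, 55.7 and 49.0 CPM in DIZE. DIZE 4 lay below vehicle 2 and the other DIZE libraries above all vehicle libraries (log2 0.23 ± 0.11 SE, edgeR adjusted p = 0.297). Mrps2, another core protein, was at 27.6, 46.6, 43.3 and 48.4 CPM with vehicle and 53.6, 61.7, 46.7 and 43.1 CPM in DIZE. Vehicle 1 was far below every other library, and Mrps2 had a log2 fold change of 0.31 ± 0.18 SE with all libraries and 0.15 without vehicle 1. Mrps21 was at 75.8, 74.8, 62.5 and 60.8 CPM with vehicle and 60.7, 51.8, 66.5 and 56.5 CPM in DIZE, with overlapping groups (log2 -0.22 ± 0.12 SE, and -0.072 with the GC and length trend removed). Mrps33 had a log2 fold change of -0.20 ± 0.13 SE, and -0.10 without vehicle 1, which was its highest library at 47.9 CPM. Mrps6 had -0.20 ± 0.14 SE and Mrps27, an RNA-binding protein with pentatricopeptide repeats, 0.17 ± 0.12 SE. Of the 34 members that the naming rule covers, 33 moved by over 1.5 times in log2 fold change under at least 1 alternative setting, Mrps5 being the exception. This was so for 23 with the GC and length trend removed and for 24 when 1 library was left out, 17 of them without vehicle 1. Over the 12 members with the smallest p, 5 lay higher and 7 lower in DIZE, and edgeR's adjusted p ran from 0.266 to 0.457.

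**Figure D3:**
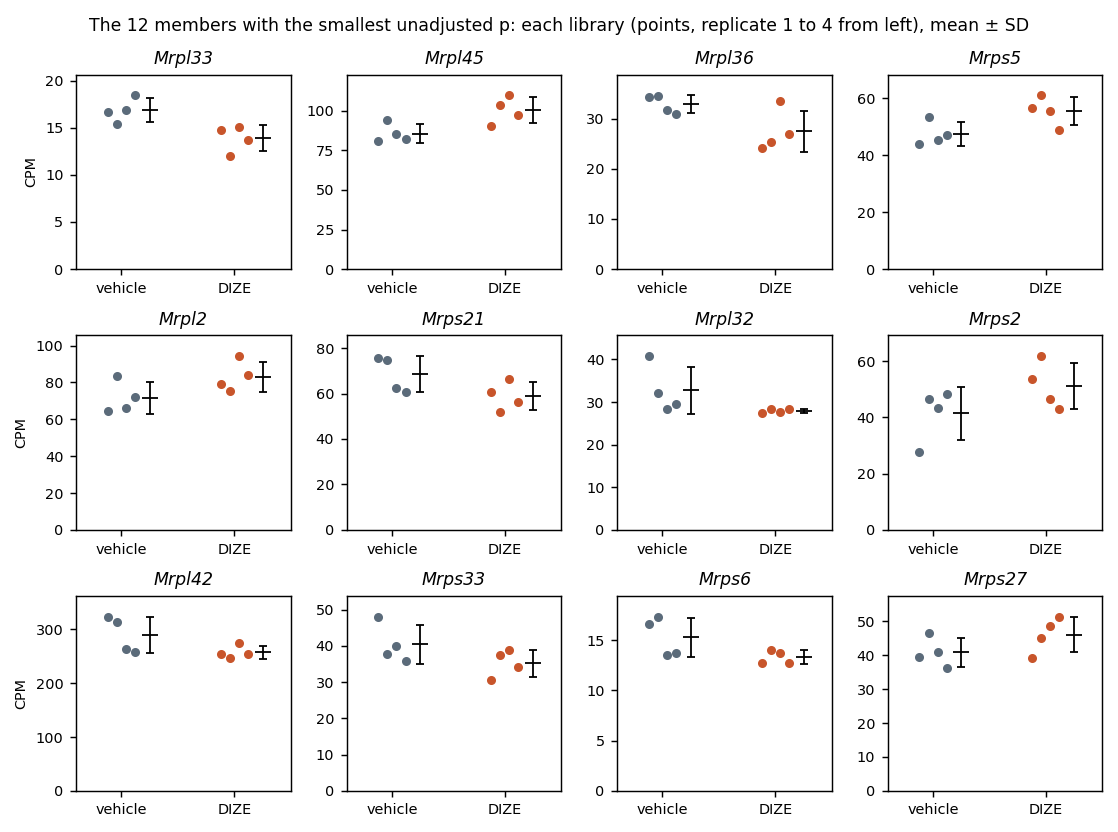
CPM in each library for the 12 members with the smallest unadjusted p, vehicle in grey and DIZE in orange, with replicates 1 to 4 from left to right and the mean ± SD beside them. The groups overlap in every panel except that of Mrpl33, and vehicle 1 stands apart for Mrps2 and Mrpl32 and is also well above the rest for Mrps33.

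Members with a known part in disease of the heart or with functions beyond the ribosome differed little between the groups. Mrpl3 was at 108 ± 7.57 CPM with vehicle and 101.5 ± 7.06 CPM in DIZE (log2 -0.093 ± 0.11 SE). Mrpl44, an RNase III-like protein of the large subunit, was at 57.8 ± 7.58 and 63.5 ± 3.95 CPM (log2 0.14 ± 0.12 SE, and 0.072 without vehicle 1 or 0.23 without vehicle 2). Mrps14 was at 53.1 ± 7.90 and 49.98 ± 4.42 CPM (log2 -0.088 ± 0.13 SE), and Mrps22 at 27.5 ± 2.27 and 29.8 ± 2.54 CPM (log2 0.12 ± 0.12 SE, and 0.074 without vehicle 3, 0.077 without DIZE 2 or 0.34 with that trend on GC and length taken out). None of these 4 differences passed the test, and the groups overlapped for each gene. Mrpl12 was at 183 ± 24.2 and 184.8 ± 11.0 CPM (log2 0.012 ± 0.12 SE, with a 95% interval from -0.25 to 0.27), and the value was below 0 with upper quartile factors (-0.0051) or library totals alone (-0.059). Mrpl58, a peptidyl-tRNA hydrolase that frees stalled ribosomes and is also a structural component, was at 38.4 ± 4.61 and 39.8 ± 2.36 CPM (log2 0.050 ± 0.12 SE, or -0.018 with library totals alone).

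The genes Mrps18a, Mrps18b and Mrps18c occupy different places in the ribosome and lay at different levels. Mrps18a, in the large subunit, was at 84.8 ± 7.31 CPM with vehicle and 94.5 ± 8.76 CPM in DIZE (log2 0.16 ± 0.11 SE, and 0.10 without DIZE 2). Mrps18b was at 16.2 ± 2.69 and 18.1 ± 0.81 CPM (log2 0.16 ± 0.14 SE, and 0.047 without vehicle 1), and Mrps18c, the homologue of the bacterial protein, at 10.3 ± 1.86 and 10.1 ± 1.49 CPM (log2 -0.043 ± 0.18 SE). Per kilobase of transcript the mean levels were 101, 15.9 and 12.4 CPM per kb. Mrps30 was at 35.2 ± 4.097 and 39.5 ± 3.71 CPM (log2 0.16 ± 0.12 SE, and 0.10 without DIZE 2), and Mrps36 at 46.0 ± 3.21 and 43.8 ± 2.92 CPM (log2 -0.070 ± 0.11 SE).

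The steadiest member over the vehicle libraries was Mrpl40, with an SD of 0.032 on the log2 scale. It was at 30.8, 31.0, 29.5 and 30.5 CPM with vehicle and 31.3, 34.6, 32.7 and 33.8 CPM in DIZE. The DIZE libraries all lay above the vehicle libraries, yet the difference was small (log2 0.12 ± 0.10 SE, edgeR adjusted p = 0.530). Next in steadiness were Mrps9 (SD 0.064), Mrpl36 (SD 0.079) and Mrpl24 (SD 0.091), and Mrpl24 was at 35.4 ± 2.21 CPM with vehicle and 35.3 ± 1.49 CPM in DIZE. The most variable members in vehicle were Mrps2 (SD 0.37), Mrpl20 (SD 0.37), Mrpl38 (SD 0.30) and Mrps18c (SD 0.27). In vehicle 1, Mrpl20 was highest of all libraries at 51.1 CPM while Mrpl38 and Mrps2 were lowest at 48.9 and 27.6 CPM.

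Summed over the family, levels were 4314 to 5084 CPM per library, with a mean of 4675 ± 369 CPM with vehicle and 4667 ± 207 CPM in DIZE. The ratio of the large-subunit to the small-subunit sum was 2.56 to 2.66 in vehicle and 2.58 to 2.67 in DIZE. The groups overlapped in both measures. Of 50 tested large-subunit members 28 lay lower in DIZE, with a median log2 fold change of -0.0087, and of 26 small-subunit members 16 lay lower, with a median of -0.037. The sign of these medians turned with the GC and length trend removed, at 0.068 and 0.063. It turned under other settings too. The large-subunit median was 0.012 with no filter beyond 1 read, 0.00018 with the title form as a block and 0.031 without vehicle 1. The small-subunit median was 0.0062 without DIZE 1.

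Homologues of bacterial proteins and the proteins gained in mitochondria had medians on different sides of 0 with all 8 libraries, though not under every setting. Of 46 homologues 33 lay lower in DIZE (median log2 fold change -0.065), and of 30 tested members without a bacterial homologue 19 lay higher (median 0.055). Over all genes, 51.8% lay lower and 48.2% higher. In the small subunit, 14 of 16 homologues lay lower (median -0.084) and 8 of 10 others higher (median 0.10). No member passed the test in any of these groups, where 0.0366% of all genes passed, and the difference between the groups was not tested. The median of the group without a homologue was the higher of the pair under all 21 alternative settings. The settings refit the same libraries and genes, so they are no independent support for a difference. Both medians lay on the same side of 0 in 4 of the settings. These were library totals alone (-0.14 and -0.012), the title number as a block (-0.14 and -0.024), titles that hold db (-0.17 and -0.033) and titles that do not (0.070 and 0.13). The median over all genes was -0.081 with library totals alone. The groups also differ in structure, with median transcript lengths of 1221 and 1461 bases and GC contents of 50.5% and 49.9%. Across the 77 members, log2 fold change had a Spearman's rho of 0.38 with transcript length and 0.053 with GC content. With the GC and length trend removed the medians were -0.0012 and 0.097.

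The members' median differed between libraries, and more within vehicle than within DIZE. Each gene's log2 CPM was set against its own mean over the 8 libraries, and the median over members was 0.13 in vehicle 1, 0.11 in vehicle 2, -0.069 in vehicle 3 and -0.098 in vehicle 4. In DIZE 1 to 4 it was -0.042, 0.0071, 0.081 and -0.057. Members above their own mean numbered 53, 74, 14 and 8 of 77 in the vehicle libraries and 29, 40, 61 and 23 in the DIZE libraries, where 49.2% to 52.9% of all tested genes lay above theirs in each library. Most members lay on 1 side in vehicle 2 and in vehicle 4, while in DIZE 2 they were nearly evenly divided. In vehicle 1, single members ran from -0.71 (Mrps2) to 0.44 (Mrpl32). Vehicle 1 and vehicle 2 have the letters db in their titles, and vehicle 3 and vehicle 4 do not. DIZE 1 and DIZE 2 have them and DIZE 3 and DIZE 4 do not, so the form of the title crosses the treatment, and what it stands for is not given in the labels. The sample descriptions differ from the titles here. In them every vehicle library holds db, as do DIZE 1 and DIZE 2, while DIZE 3 and DIZE 4 do not.

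**Figure D4:**
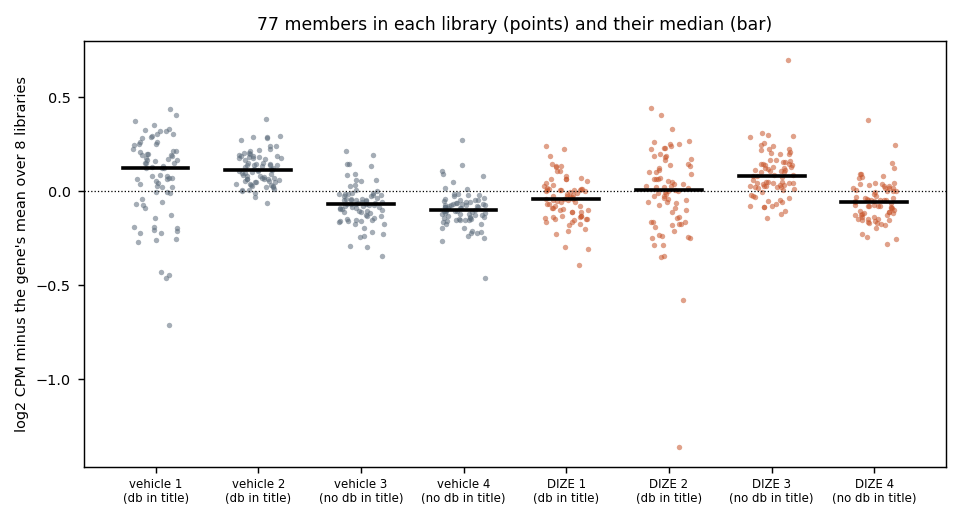
Log2 CPM of each of the 77 members (points) minus that gene's mean over the 8 libraries, with the median (bar), by library and form of the sample title. Medians of the vehicle libraries run from -0.098 to 0.13, wider than the -0.057 to 0.081 of the DIZE libraries.

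Within the libraries whose titles hold db, 55 of 77 members lay lower in DIZE, with a median log2 fold change of -0.16, and within those whose titles do not, 14 lay lower, with a median of 0.095. The pooled median of -0.021 thus stood between values of opposite sign. No member passed the adjusted edgeR test within either form, where 0 and 9.57% of all genes passed. At an unadjusted p under 0.05 there was 1 member within the first form, against 8.28% of genes, and there were 8 members within the second, against 25.8%. A test of the difference between the forms, as an interaction with treatment that was added after the data were seen, called 0 members and 0 genes, and an unadjusted p under 0.05 was found for 4 members (5.19%) against 8.84% of all genes. Without vehicle 1, whose marker levels stood apart, 37 members lay lower (median 0.018), and without vehicle 2, with its Alb reads, 35 (median 0.011).

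Other genes of mitochondrial translation were taken from lists of known components, and no gene of these lists passed the adjusted edgeR test. Among 5 ribosomal proteins with other symbols, 3 lay higher and 2 lower, with Dap3 at 81.3 ± 7.19 CPM with vehicle and 85.3 ± 6.11 CPM in DIZE (log2 0.070 ± 0.11 SE, and from 0.025 without vehicle 1 to 0.12 without vehicle 2 when 1 library was left out) and Chchd1 at 54.6 ± 8.58 and 45.6 ± 5.31 CPM (log2 -0.26 ± 0.14 SE). These values lay in the range of the members.

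The ribosomal RNA differed more than its proteins. mt-Rnr1, the small-subunit rRNA, was at 2251, 2617, 2709 and 2002 CPM with vehicle and 1515, 1605, 1765 and 1335 CPM in DIZE. Every DIZE library lay below every vehicle library, and the log2 fold change was -0.62 ± 0.13 SE (edgeR adjusted p = 0.0888, DESeq2 adjusted p = 0.0019). mt-Rnr2, the large-subunit rRNA, was at 4723, 5396, 5599 and 4181 CPM with vehicle and 3493, 3643, 3833 and 3206 CPM in DIZE. Its groups did not overlap either (log2 -0.49 ± 0.12 SE, edgeR adjusted p = 0.0989, DESeq2 adjusted p = 0.0084). Both thus missed the adjusted edgeR threshold and passed with DESeq2, and with the GC and length trend removed the log2 fold changes were -0.26 and -0.20. The libraries were poly(A)-selected, so reads of these rRNAs measure only what that selection kept.

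Of the 13 mitochondrially encoded protein genes, the messages these ribosomes read, all 13 lay lower, with a median log2 fold change of -0.11. Over all genes 51.8% lay lower, but the 13 share the mitochondrial DNA and cannot be counted as independent results. Of the 13, 1 (7.69%) had an unadjusted p under 0.05, against 19.4% of all genes. That gene was mt-Nd3, a complex I subunit, at 64.4 ± 9.43 CPM with vehicle and 52.8 ± 2.96 CPM in DIZE (log2 -0.29 ± 0.13 SE, edgeR adjusted p = 0.241). With the GC and length trend removed its log2 value was 0.19, that of mt-Nd4l 0.098 and that of mt-Co3 0.094. Summed over the 13 genes, levels were 68249 to 90319 CPM with vehicle and 69611 to 81695 CPM in DIZE, and the groups overlapped.

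Other nuclear genes build the ribosome and serve translation, and 48.2% of all tested genes lay higher in DIZE. Of 30 tested genes of ribosome assembly and rRNA modification, 20 lay higher and 10 lower (median log2 fold change 0.14), and 5 (16.7%) had an unadjusted p under 0.05, all higher, against 19.4% of all genes in either direction. Cardiomyocyte markers also lay higher in 9 of 10 cases (median 0.12), while 9 of 10 fibroblast markers (median -0.31) and 8 of 9 macrophage markers (median -0.40) lay lower. The part of these markers in the values of this and the following gene groups was not tested. Spg7, a subunit of the inner-membrane protease, was at 127, 170.1, 152.9 and 155.7 CPM with vehicle and 217.8, 212, 216 and 197 CPM in DIZE. Its groups did not overlap (log2 0.48 ± 0.11 SE, edgeR adjusted p = 0.0938, DESeq2 adjusted p = 0.0046), and the log2 fold change was 0.26 with the GC and length trend removed. C1qbp, a matrix protein needed for mitochondrial translation, had log2 0.29 ± 0.11 SE, and Noa1, a GTPase of small-subunit assembly, 0.43 ± 0.17 SE, or 0.28 without vehicle 1.

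Of 13 translation factors 12 lay higher (median 0.14). An unadjusted p under 0.05 was found for 3 of them (23.1%), against 19.4% of all genes. Oxa1l, which inserts new proteins into the inner membrane, was at 91.7, 146.7, 121.9 and 135.1 CPM with vehicle and 163.6, 162.5, 172.3 and 164.9 CPM in DIZE, with groups that did not overlap (log2 0.42 ± 0.14 SE, edgeR adjusted p = 0.157). The elongation factor genes Tsfm, Gfm1 and Tufm had log2 fold changes of 0.31 ± 0.12 SE, 0.29 ± 0.13 SE and 0.22 ± 0.17 SE, and that of Tufm was 0.075 without vehicle 1, where it was lowest at 149 CPM, and 0.12 with the GC and length trend removed. Of 20 mitochondrial aminoacyl-tRNA synthetases 14 lay higher (median 0.091), and 4 (20%) had an unadjusted p under 0.05, 3 higher and 1 lower. Lars2, for leucine, was the exception in size, at 630, 984, 657 and 751 CPM with vehicle and 395, 446, 600 and 347 CPM in DIZE. Vehicle libraries were all above the DIZE libraries, with DIZE 3 close to them (log2 -0.76 ± 0.19 SE, edgeR adjusted p = 0.101, DESeq2 adjusted p = 0.0124). Aars2, for alanine, had log2 0.40 ± 0.12 SE, and 0.12 with the GC and length trend removed.

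Sars2, the gene that shares its start region with Mrps12, was at 14.6 ± 4.30 CPM with vehicle and 22.1 ± 4.37 CPM in DIZE (log2 0.60 ± 0.22 SE, edgeR adjusted p = 0.185, and 0.42 without vehicle 1). Mrps12, from the same stretch of the last promoter shown above, was at 33.1 ± 3.15 and 32.3 ± 5.89 CPM (log2 -0.030 ± 0.14 SE). Twnk, which overlaps the start of Mrpl43, was at 35.6 ± 5.75 and 45.5 ± 0.55 CPM (log2 0.35 ± 0.13 SE, edgeR adjusted p = 0.178, and 0.23 with the GC and length trend removed), against log2 0.15 ± 0.13 SE for Mrpl43. The differences between the genes of a pair were not tested. The paired members Mrps11 and Mrpl46 had log2 -0.097 ± 0.16 SE and -0.12 ± 0.13 SE. Over 26 tested partners that are not members, 8 lay lower in DIZE, and 6 had an unadjusted p under 0.05, against 19.4% of all genes.

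Among 17 genes of mitochondrial DNA transcription and RNA handling 10 lay higher (median 0.072). An unadjusted p under 0.05 was found for 1 of them (5.88%), against 19.4% of all genes. Polrmt, the mitochondrial RNA polymerase, was at 18.3, 58.7, 42.6 and 46.1 CPM with vehicle and 52.2 to 63.1 CPM in DIZE. Vehicle 1 lay far below the rest, and the log2 fold change was 0.47 ± 0.27 SE with it, 0.22 without it and 0.26 with the GC and length trend removed. Tfam, the packaging and transcription factor of mitochondrial DNA, had log2 0.057 ± 0.12 SE, or -0.018 with library totals alone. Of 10 regulators of nuclear mitochondrial genes 6 lay higher (median 0.030), and 2 (20%) had an unadjusted p under 0.05. Esrra, an orphan nuclear receptor, was at 109, 139.5, 134 and 123.9 CPM with vehicle and 185, 175, 180.3 and 161 CPM in DIZE, with separate groups (log2 0.47 ± 0.11 SE, edgeR adjusted p = 0.0955, DESeq2 adjusted p = 0.0048), and its log2 fold change was 0.23 with the GC and length trend removed. Myc was at 4.31 to 7.18 CPM with vehicle and 7.76 to 15.3 CPM in DIZE (log2 0.97 ± 0.23 SE, edgeR adjusted p = 0.0989, DESeq2 adjusted p = 0.0114).

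**Figure D5:**
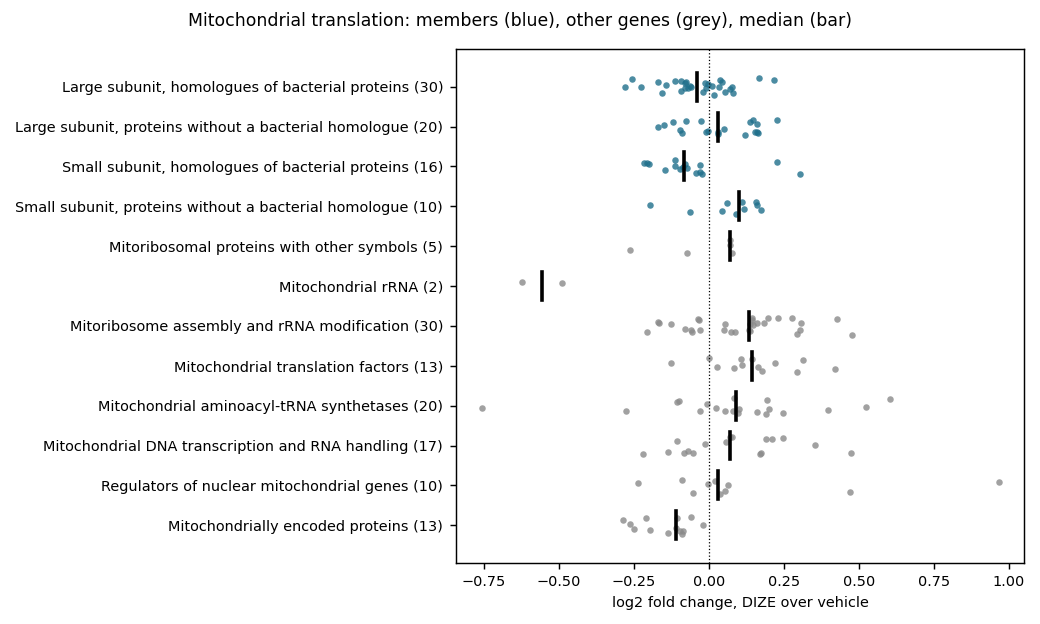
Log2 fold change of DIZE over vehicle for each tested gene, by group, with members in blue, other genes of mitochondrial translation and its regulation in grey, the median as a bar and the number tested in brackets. Members lie between -0.28 and 0.31. Genes outside that range include the rRNAs, Lars2, Sars2, Myc, Spg7, Polrmt, Esrra, Noa1, Oxa1l, Aars2, Twnk and Tsfm.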

How the data were processed

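Gene counts of 8 mouse heart libraries were used, 4 per group, grouped by the treatment in the labels. The values are raw read counts per Ensembl gene that the authors made with HTSeq 0.6.1p1 after STAR 2.7.3 on mm10, per the submitters' processing notes, and the table was deposited without normalization. The sources used here give neither the annotation release nor how strand and overlapping genes were treated in counting. Symbols, positions and lengths came from GENCODE on GRCm38 (55141 of 55487 identifiers matched), and promoters from RefSeq. Low genes were removed with filterByExpr at a minimum count of 10 and a minimum total of 15. DIZE and vehicle were compared with the two-sided, robust quasi-likelihood test of edgeR 4.0.16 (R 4.3.3) on TMM factors, with Benjamini-Hochberg adjustment over all tested genes and a threshold of 0.05. Where a sentence gives an adjusted p, all 8 libraries entered the fit. The procedure was tested on simulated data.

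Alternatives were DESeq2 1.42.0, limma-voom (limma 3.58.1), other size factors and filters, removal of a trend on GC content and length from every library, the form or the number of the sample title as a block, each title form alone and each library left out in turn. Members and gene lists were chosen with earlier results of these data known. The interaction with title form, the 1.5-fold bound, the length used for levels per kilobase, the background of genes in the members' range of levels, the 1000-base distance and the motifs described were chosen after values were seen. Named members are the 12 with the smallest unadjusted p, the 4 highest per kilobase in each subunit and the 3 lowest, the 4 most and the 4 least variable in vehicle, and 11 chosen for their function; up to 3 genes per other list with the smallest unadjusted p, and Dap3, Tufm, Polrmt and Tfam, are also named. Chchd1, Mrps34 and the genes that share a start with a member were named after their values were seen, unless a list gives them. No 2 libraries agreed within sampling noise (chi-square over genes at least 5.57 per degree of freedom). The deposited table held 0 columns of other samples.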

Additional observations from a re-analysis of the deposited data

Results flagged for a closer look

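In 120 groups of 4 values, of the named genes and of the family's summary values, a single library stood far from the other 3 in 4 groups by Dixon's test at 95%, which sets the gap to the nearest library against the group's whole range, and about 1 group in 20 is picked out by chance. Mrps14 was at 56.6 CPM in DIZE 2, above 47.2 to 48.3 CPM in the other DIZE libraries. Mrpl28 was at 131 CPM in DIZE 3, above 121 to 122 CPM. Noa1 was at 13.03 CPM in vehicle 1, below 20.8 to 21.7 CPM in the other vehicle libraries. Tfam was at 68.7 CPM in DIZE 2, above 54.8 to 55.8 CPM.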

How the results depend on the processing

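No member passed the adjusted threshold under any of the 21 alternatives, while the count over all genes moved widely around the main 5. It was 606 with DESeq2, 386 with no filter beyond 1 read, 42 with the GC and length trend removed, 9 with the title form as a block and 0 with library totals alone. It was 0 within titles that hold db, 1349 within those that do not, and 0 to 240 when 1 library was left out, with 240 without vehicle 2. Members with an unadjusted p under 0.05 numbered 0 in the main fit, 1 with DESeq2, 1 without the filter, 2 with library totals alone, 5 with the GC and length trend removed, 1 with the title form as a block, 1 and 8 within the title forms, and 0 to 5 when 1 library was left out. The count of members lower in DIZE was 58 with library totals alone, 52 with the title number as a block, 26 with the GC and length trend removed, and 55 and 14 within titles that hold db and those that do not, against 45, and 35 to 50 when 1 library was left out. The members' median log2 fold change was -0.093 with library totals alone, -0.11 with the number block and 0.071 with the GC and length trend removed. Medians over all genes in these settings were -0.081, -0.0037 and 0.027. The members' median was -0.16 and 0.095 within the title forms, and -0.067 to 0.018 when 1 library was left out. In fits with 1 library left out, the median over all genes was -0.017 to -0.0015. The causes were not tested.

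The labels share numbers between the groups but do not say that they pair animals. For same-numbered libraries, log2 CPM was correlated after each gene's group mean was subtracted. Over all genes these remainders correlated at -0.079 to 0.031 for vehicle 1 with DIZE 1, vehicle 2 with DIZE 2 and vehicle 3 with DIZE 2. For vehicle 2 and vehicle 3 with DIZE 4 they correlated at -0.14 and -0.020. Over members the values ran from -0.30 (vehicle 3 with DIZE 2) to 0.24 (vehicle 3 with DIZE 4). Number 4 is shared by vehicle 2, vehicle 3, DIZE 2 and DIZE 4, so it names no single pair. The numbers were not taken as pairs, and whether they pair animals cannot be told from these values. Vehicle 4 and DIZE 3 have numbers that no other library shares, so with the number as a block they add nothing to the treatment estimate. Values under this block therefore reflect the loss of these libraries as well as the block. With the number as a replicate block 0 genes passed, and 1 member had an unadjusted p under 0.05, against 14.2% of all genes. The sign turned there for Mrpl12 -0.10, Mrpl28 -0.013, Mrps23 -0.031, Mrps18c 0.0078 and Mrpl58 -0.036 (log2). With the block and the GC and length trend removed together 0 genes passed. In that fit 3 members had an unadjusted p under 0.05, against 13.8% of all genes. The turned values were Mrpl33 0.071, Mrpl42 0.082, Mrps33 0.0084, Mrpl12 -0.13, Mrpl28 -0.050, Mrps9 0.053, Mrpl17 0.0011, Mrpl20 0.013, Mrps18c 0.36, Mrpl24 0.13, Mrpl58 -0.041, Mrps36 0.21, mt-Nd3 0.16, mt-Nd4l 0.12 and mt-Co3 0.085.

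Of 714 log2 values of the 34 named members under the alternatives, 73 had the other sign, none of them past the threshold, and 15 members kept their sign throughout. Turned values with the GC and length trend removed were Mrpl33 0.0019, Mrpl42 0.11, Mrps33 0.071, Mrpl12 -0.046, Mrpl28 -0.025, Mrps9 0.089, Mrps25 0.09, Mrpl17 0.15, Mrpl57 0.018, Mrpl20 0.078, Mrps18c 0.26, Mrpl24 0.14, Mrps14 0.055, Mrps36 0.19, mt-Nd3 0.19, mt-Nd4l 0.10 and mt-Co3 0.094. With library totals alone they were Mrpl12 -0.059, Mrpl28 -0.019, Mrps23 -0.025, Mrpl58 -0.018 and Tfam -0.018, and with upper quartile factors Mrpl12 -0.0051. Mrpl24 turned to 0.0011 with DESeq2, 0.00087 with median-ratio factors, 0.018 without the filter and 0.00036 with the title form as a block. Within titles that hold db they were Mrps27 -0.024, Mrpl12 -0.13, Mrpl28 -0.00061, Mrps23 -0.012, Mrpl58 -0.082 and Ppargc1b 0.12, and within the others Mrps2 -0.032, Mrpl42 0.017, Mrps9 0.068, Mrps15 0.10, Mrps25 0.068, Mrpl17 0.12, Mrpl57 0.023, Mrpl20 0.091, Mrpl24 0.072, Mrps14 0.019 and Mrps36 0.070. Leaving out 1 library gave ranges across 0 for Mrpl12 -0.067 to 0.066, Mrpl28 -0.012 to 0.11, Mrps23 -0.0033 to 0.077, Mrps9 -0.083 to 0.013, Mrpl20 -0.20 to 0.068, Mrps18c -0.15 to 0.058, Mrpl24 -0.037 to 0.027, Mrpl58 -0.0061 to 0.12, Mrps14 -0.16 to 0.0080 and Tfam -0.027 to 0.12. Mrps34, the tested member with the lowest mean level (8.15 CPM), also had the largest standard error (0.33), and the part of depth was not tested.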
